A study of Diuraphis noxia with 6 samples.

Results

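In 97 genes of the assembled transcriptome of the Russian wheat aphid, *Diuraphis noxia*, the isoform with the highest level was one transcript in every RWA-SA1 library and another transcript in every RWA-SAM library. These genes were drawn from 5882 gene identifiers that carry at least 2 transcripts and a summed level of at least 5 TPM (a transcript level corrected for length and scaled to the same total in every library) in each of the 6 libraries, out of 60140 gene identifiers in all, and make up 1.65% of the 5882. They were chosen by the isoform TPM of all libraries of both biotypes, and ranked by the share of the gene's TPM held by the RWA-SA1 top isoform, as the mean of RWA-SA1 minus the mean of RWA-SAM. A limit of 150 genes was set, and with 97 genes meeting the rule all were kept. All differences in isoform share and isoform level between the biotypes in these genes are therefore given as a description, without a test. A test was run only on summed expression, across all genes, and its calls are likewise read only as counts beside the share of all genes called. Values per library stand in the order of replicates 1, 2 and 3.

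RWA-SA1 and RWA-SAM are related South African biotypes of this aphid, that is, populations of one species that differ in virulence to resistant wheat. Each biotype gave 3 libraries, made from whole aphids of mixed growth stages in pools of 100, reared on the host each biotype prefers and prepared with a stranded mRNA kit. Any difference between these hosts goes with the biotype, so host and biotype cannot be told apart. The labels give no treatment and no genetic change for either group. The libraries held 32294116 to 47619238 RSEM expected counts over 90781 transcripts. Nothing in the labels says that the pools of a biotype came from separate colonies, so the spread between libraries may be technical. One library stood apart from its label: RWA-SA1 replicate 1 had the same top isoform as the other RWA-SA1 libraries in 85.9% and 86.1% of the 5882 genes, and as the RWA-SAM libraries in 88.0% to 88.9%. Without it 356 genes met the rule in place of 97. In the number of transcripts at 1 TPM or more, RWA-SA1 replicates 2 and 3 stood apart instead, with 27564 and 27505. RWA-SA1 replicate 1 had 33522, and the RWA-SAM libraries had 35221, 37027 and 36006. Whether this bears on the top isoforms was not tested.

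Most eukaryotic genes can give more than one mRNA, through other start sites, other splicing or other polyadenylation sites, and a change in the leading isoform can alter the protein or the untranslated ends without a change in the amount of RNA from the gene. In an assembly made without a genome, the transcripts grouped under one gene identifier are paths through a graph of overlapping reads. Such a group may hold splice forms, but also alleles or close gene copies, and reads that fit several of them are divided by estimation. No names or sequences accompany the identifiers in the files used here, so neither the function of these genes nor the part of the transcript that differs is given, and tissue markers could not be checked. The paper reports that an earlier assembly of reads from both biotypes held transcripts of *Buchnera aphidicola*, the bacterial endosymbiont of this aphid. Whether any switch gene is one of these could not be checked either. Pools of whole aphids mix tissues and embryos. A shift in the isoforms used within cells, a shift in the makeup of the pool, and the number of cells against the RNA per cell cannot be told apart.

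The switches were partial. The RWA-SA1 top isoform had a median share over the 97 genes of 50.7% of the gene's TPM in its own biotype and 31.9% in the other, while the RWA-SAM top isoform had 47.4% in its own and 27.2% in the other. The difference in the share of the RWA-SA1 top isoform ranged from 1.73 to 40.8 percentage points, with a median of 16.6. It was at least 30 points in 11 genes, at least 20 points in 41 and under 10 points in 21. In no gene did a top isoform hold 50% or more in every library of its biotype and 10% or less in every library of the other, with the reverse for its partner. No top isoform was listed at 0 in all 3 libraries of the other biotype. In 4 genes the RWA-SAM top isoform was at 0 in some RWA-SA1 library, while no RWA-SA1 top isoform was at 0 in any RWA-SAM library. Both top isoforms exceeded 50% throughout their own libraries in 18 genes.

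The spread between libraries was wider in RWA-SA1. For the RWA-SA1 top isoform the median standard deviation of its share was 5.47 percentage points over the RWA-SA1 libraries and 3.20 points over the RWA-SAM libraries (n = 3 each). RWA-SA1 replicate 1 had the lowest share of its group in 69 genes. Its median share was 45.1%, against 53.2% and 53.4% in RWA-SA1 replicates 2 and 3. The difference between the biotype means exceeded the sum of both standard deviations in 88 genes and lay within it in 9. The rule chose on these shares and the same count was not made over the 5882 genes, so nothing is read from it. In 87 genes every RWA-SA1 library had a larger share of the RWA-SA1 top isoform than every RWA-SAM library. The share of the RWA-SAM top isoform was higher in every RWA-SAM library in 89 genes, and 80 genes had both orders. Over the 5882 genes, the share of the isoform with the highest mean TPM did not overlap between the biotypes in 28.2%, and since the rule chose on these shares nothing is read from the higher count in the switch genes.

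The lead of one isoform over the next was often narrow. The smallest lead in any library had a median of 1.07 times over the 97 genes, and in 58 genes the top isoform was less than 1.1 times the next one in at least 1 library. A lead of at least 1.5 times in all libraries was found in 2 genes alone, TRINITY_DN3913_c0_g1 and TRINITY_DN6273_c0_g1, the latter named after its values were seen. In 2 others, TRINITY_DN2578_c0_g1 and TRINITY_DN980_c0_g1, the top isoforms were tied in a library, and the first by identifier was taken as the top. The top isoform had at least 100 expected counts in every library of its own biotype in 92 genes, with a lowest value of 41.3.

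**Figure D1:**
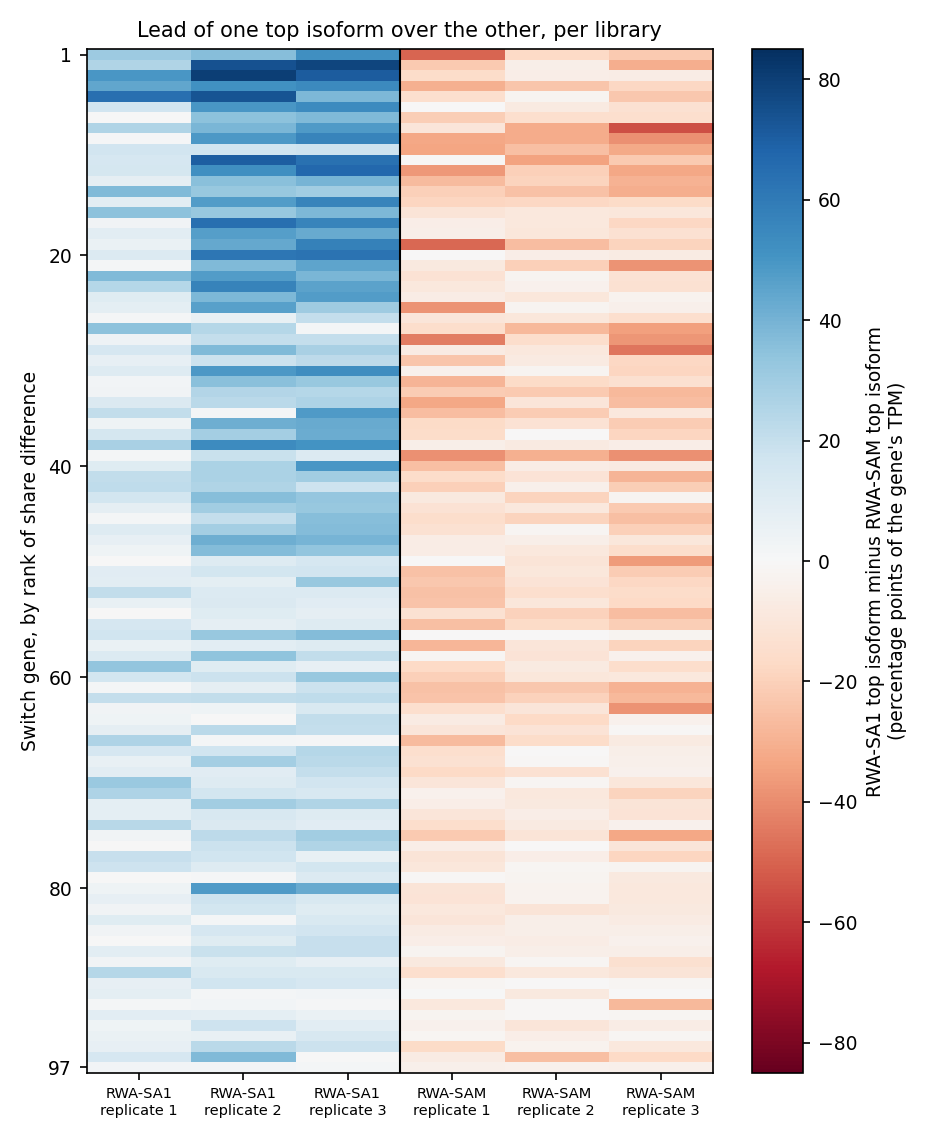
Each row is a switch gene, ordered by rank, each column a library, and the colour the share of the gene's TPM held by the RWA-SA1 top isoform minus that of the RWA-SAM top isoform, in percentage points. By the rule the RWA-SA1 columns are blue or white and the RWA-SAM columns red or white, and the column of RWA-SA1 replicate 1, where the median shares were 45.1% and 34.0%, is paler than those of replicates 2 and 3.

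The 10 genes of highest rank show what these shares are made of. In TRINITY_DN3913_c0_g1, which has 3 isoforms, the RWA-SA1 top isoform of 4144 bases held 62.6%, 60.8% and 67.7% of the gene's TPM in the RWA-SA1 libraries, against 11.6%, 28.5% and 28.6% for RWA-SAM. The RWA-SAM top isoform of 4216 bases held 31.6%, 24.5% and 15.9% in RWA-SA1, and 61.3%, 45.5% and 50.7% in RWA-SAM. Both isoforms separated the biotypes without overlap, and RWA-SAM replicate 1 lay farthest from the RWA-SA1 libraries. The summed TPM of the gene was 14.2, 13.1 and 13.8 in RWA-SA1 and 16.6, 15.3 and 16.1 in RWA-SAM, higher in every RWA-SAM library.

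TRINITY_DN277_c0_g1 has 2 isoforms, so that one share mirrors the other. The longer one, of 8080 bases, held 72.0%, 75.9% and 77.2% in RWA-SA1 and 35.0%, 38.2% and 41.1% in RWA-SAM. Here the spread was small in both biotypes, at 75.0% ± 2.69 (SD, n = 3) against 38.1% ± 3.05 (SD, n = 3). Its TPM was 19.3, 20.5 and 21.3 in RWA-SA1 and 9.29, 8.88 and 9.91 in RWA-SAM. The isoform of 7332 bases moved the other way, from 7.48, 6.51 and 6.29 TPM to 17.3, 14.4 and 14.2 TPM. The isoforms did not overlap between the biotypes. The gene total was 26.7, 27.0 and 27.6 TPM in RWA-SA1 and 26.6, 23.3 and 24.1 TPM in RWA-SAM. It was thus lower in every RWA-SAM library, though narrowly so in replicate 1.

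In TRINITY_DN1202_c0_g1 the 2 top isoforms differ by only 14 bases, with lengths of 4931 and 4945. The RWA-SA1 top isoform had 55.9, 68.5 and 63.4 TPM in RWA-SA1 and 28.6, 31.3 and 34.9 TPM in RWA-SAM. For its partner the values were 12.1, 1.96 and 5.72 TPM in RWA-SA1 and 42.1, 35.7 and 40.3 TPM in RWA-SAM. The total of the gene was nearly level, at 84.5 TPM on average in RWA-SA1 and 86.0 TPM in RWA-SAM. The correction for length thus acts nearly alike on both, and this gene met the rule on expected counts as well.

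In other genes a single isoform of the pair separated the biotypes by its TPM. In TRINITY_DN4422_c0_g3 the RWA-SA1 top isoform of 5657 bases had 9.51, 7.43 and 8.20 TPM in RWA-SA1 and 6.72, 7.87 and 6.38 TPM in RWA-SAM, which overlap. The isoform of 2664 bases had 5.50, 1.03 and 0.860 TPM in RWA-SA1 and 10.7, 8.68 and 12.4 TPM in RWA-SAM. By TPM only the shorter transcript separated the biotypes, and there RWA-SA1 replicate 1 lay between the other RWA-SA1 libraries and RWA-SAM. The gene total was also higher in every RWA-SAM library, at 17.8, 16.9 and 19.3 TPM against 15.6, 8.62 and 9.40 TPM. The shares of both isoforms did not overlap. TRINITY_DN3505_c0_g1 was alike, in that its RWA-SAM top isoform, of 2945 bases, had 0.850, 0 and 0.720 TPM in RWA-SA1 and 5.27, 3.63 and 5.88 TPM in RWA-SAM. Its RWA-SA1 top isoform, of 3265 bases, overlapped, with 7.35, 4.52 and 3.23 TPM in RWA-SA1 and 3.54, 3.36 and 3.05 TPM in RWA-SAM.

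The opposite case was a RWA-SA1 top isoform of lower TPM in RWA-SAM beside a partner whose TPM overlapped. TRINITY_DN325_c0_g1 carries 15 isoforms. Its RWA-SA1 top isoform, of 3379 bases, had 25.1, 73.7 and 72.0 TPM in RWA-SA1 and 7.28, 9.77 and 8.57 TPM in RWA-SAM. The isoform of 5846 bases, which led in RWA-SAM, had 24.9, 27.0 and 23.8 TPM in RWA-SA1 and 29.4, 25.3 and 24.8 TPM in RWA-SAM. It led there with a share of only 24.0% ± 3.15 (SD, n = 3). In RWA-SA1 replicate 1 the order of the pair rests on 20.1% against 19.9%. In TRINITY_DN902_c0_g2 the RWA-SA1 top isoform held 55.4%, 72.9% and 75.3% in RWA-SA1 and 31.5%, 34.9% and 29.0% in RWA-SAM. The shares of its partner overlapped, with 39.1%, 23.1% and 22.0% in RWA-SA1 and 32.0%, 42.9% and 41.9% in RWA-SAM.

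The remaining genes of the 10 differed in how far RWA-SA1 replicate 1 went with its biotype. In TRINITY_DN4625_c0_g1, with 2 isoforms, the one of 1383 bases held 50.5%, 74.6% and 78.0% in RWA-SA1 and 33.4%, 34.4% and 30.5% in RWA-SAM, so that replicate 1 stood close to an even split. In TRINITY_DN6661_c0_g2 the isoform of 2627 bases held 39.4%, 49.8% and 49.5% in RWA-SA1, and 21.3%, 11.5% and 1.12% in RWA-SAM, where the spread was the larger one. Its gene total was also lower in every RWA-SAM library, at 36.7 to 41.5 TPM against 44.2 to 78.6 TPM. For TRINITY_DN5214_c1_g1 the RWA-SA1 top isoform had 42.3%, 53.9% and 53.9% in RWA-SA1 and 17.1%, 19.9% and 13.6% in RWA-SAM. The total of that gene was level, with means of 55.6 and 55.8 TPM.

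**Figure D2:**
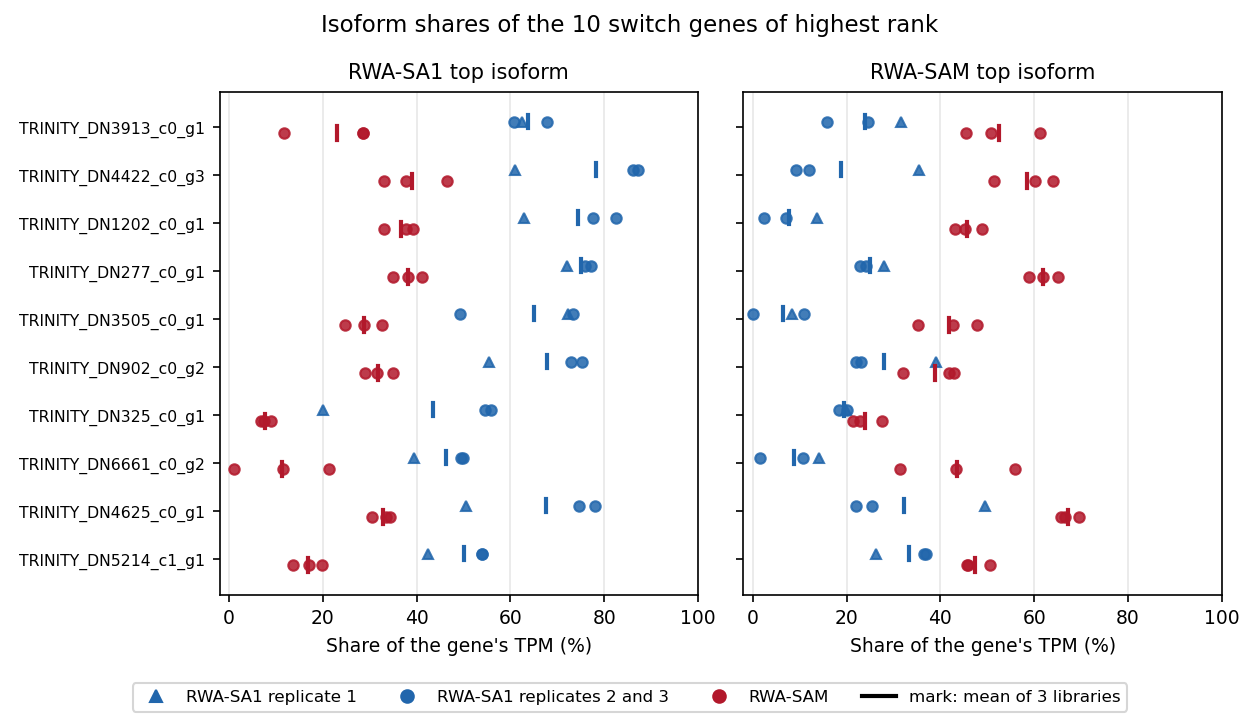
Share of the gene's TPM held by the RWA-SA1 top isoform (left) and by the RWA-SAM top isoform (right) in the 10 genes of highest rank, where points are libraries (RWA-SA1 blue, with replicate 1 as a triangle, and RWA-SAM red) and vertical marks are means of 3 libraries. On the left the blue and red points do not overlap in any of the 10 genes, while on the right they overlap in TRINITY_DN902_c0_g2, and in TRINITY_DN325_c0_g1 they lie close, with means of 19.5% and 24.0%.

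Over all 97 genes, the TPM of both top isoforms moved apart without overlap in 46, the RWA-SA1 top isoform being higher in RWA-SA1 and its partner higher in RWA-SAM. In 27 genes only the RWA-SAM top isoform separated the biotypes, being higher in RWA-SAM, and in 18 only the RWA-SA1 top isoform did, being higher in RWA-SA1. Both overlapped in 3 genes. Both were higher in RWA-SA1 in TRINITY_DN3122_c0_g1 and TRINITY_DN167_c0_g2, and both higher in RWA-SAM in TRINITY_DN7678_c0_g2. Among 19470 transcripts of the 5882 genes with a mean of at least 1 TPM, 12.3% were higher in every RWA-SA1 library and 19.0% higher in every RWA-SAM library, and the rule again forbids reading the counts of the switch genes against these shares. As the ratio of mean TPM in RWA-SAM to that in RWA-SA1, the RWA-SA1 top isoforms had a median of -0.60 on the log2 scale and the RWA-SAM top isoforms a median of 0.77.

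**Figure D3:**
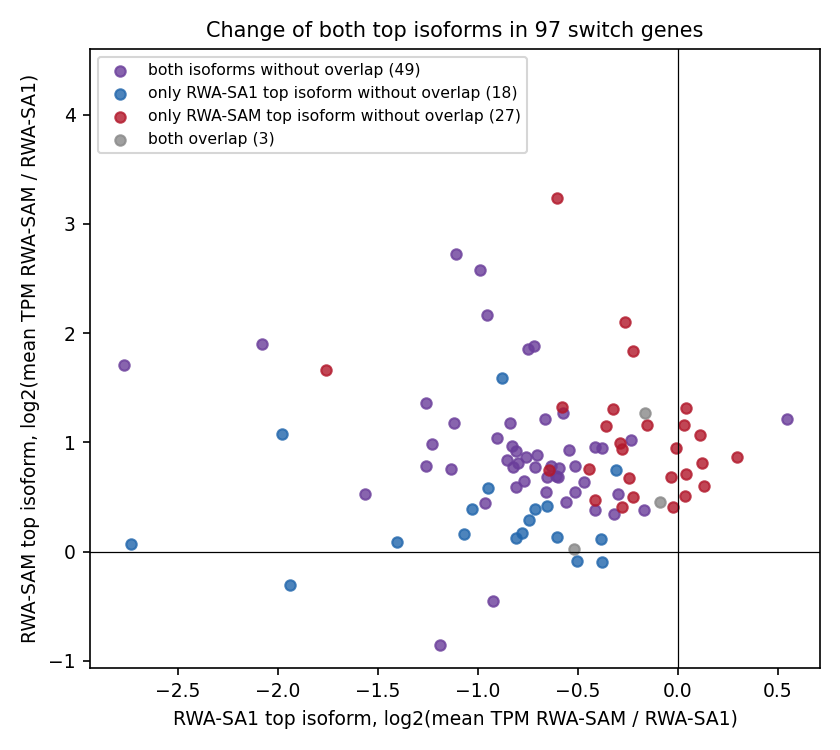
Each point is a switch gene, with the log2 ratio of mean TPM, RWA-SAM over RWA-SA1, of its RWA-SA1 top isoform on the horizontal axis and of its RWA-SAM top isoform on the vertical axis. Colours show whether the TPM of the isoform in 3 libraries of each biotype overlapped, and most points lie in the upper left, where one isoform is lower and the other higher in RWA-SAM.

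The top isoforms of the biotypes were also the 2 isoforms of highest mean TPM over all libraries in 95 of the 97 genes. Together they held at least 80% of the gene's TPM in every library in 36 genes, of which 23 carry more than 2 isoforms, and less than 50% in at least 1 library in 12 genes. In the 84 genes with more than 2 isoforms, the median share of the remaining isoforms was 23.5% for RWA-SA1 and 24.2% for RWA-SAM. Their summed share overlapped between the biotypes in 58 of these genes, was higher in RWA-SAM in 16 and higher in RWA-SA1 in 10. In the 4018 genes with more than 2 isoforms the summed share beyond the 2 isoforms of highest mean TPM did not overlap in 25.2%, and since shares within a gene sum to a whole, nothing is read from the count in the switch genes.

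The number of isoforms varied from 2 to 21, with a median of 5, against 3 over the 5882 genes. Of the genes with 2 isoforms 0.697% met the rule, compared with 1.56% of those with 3, 2.34% of those with 4 or 5, 2.13% of those with 6 to 9 and 2.46% of those with 10 or more. A gene with more isoforms also had a less stable leader, since 86.3% of the genes with 2 isoforms and 51.4% of those with 10 or more kept 1 top isoform within each biotype. TRINITY_DN27068_c0_g1 had the most isoforms. Its RWA-SA1 top isoform held 26.4%, 40.6% and 44.3% in RWA-SA1 and 4.66%, 12.2% and 6.69% in RWA-SAM, and its RWA-SAM top isoform 18.9%, 5.05% and 5.03% in RWA-SA1 and 31.4%, 31.2% and 36.5% in RWA-SAM. The biotypes did not overlap for either isoform, though no isoform reached 50%. TRINITY_DN5136_c1_g1 and TRINITY_DN557_c0_g1 carry 16 isoforms each. In the first the RWA-SA1 top isoform overlapped, with 24.2% ± 3.59 (SD, n = 3) in RWA-SA1 against 21.1% ± 3.92 (SD, n = 3), while its partner went from 8.33% ± 5.17 (SD, n = 3) to 30.4% ± 2.98 (SD, n = 3) without overlap. In the second the RWA-SA1 top isoform held 38.0% to 49.0% in RWA-SA1 against 24.9% to 28.7%, and its partner 14.6% to 26.3% against 29.5% to 36.6%.

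Isoform switches were seen at all levels of expression. The mean summed TPM of the 97 genes ran from 7.90 to 624, with a median of 39.5, close to the median of 36.5 over the 5882 genes, and together they took 0.648% to 0.693% of the TPM of a library. The 5 of highest mean TPM had share differences of 1.73 to 17.4 points. In TRINITY_DN3122_c0_g1, the last by rank, the RWA-SA1 top isoform held 28.7%, 27.6% and 26.5% in RWA-SA1 and 26.0%, 24.1% and 27.6% in RWA-SAM, which overlap. In TRINITY_DN2809_c0_g1 the RWA-SA1 top isoform of 494 bases had 22.9%, 31.4% and 28.7% in RWA-SA1 against 21.0%, 20.7% and 20.3% in RWA-SAM, with a lead in RWA-SAM replicate 2 of less than 1 percentage point. The widest difference of the 5 was that of TRINITY_DN200_c0_g1, with 2 isoforms, where the one of 745 bases held 51.9%, 68.3% and 66.8% in RWA-SA1 and 46.8%, 45.4% and 42.6% in RWA-SAM. In that gene the isoform of 745 bases was level in TPM, at 164 to 178 against 163 to 182, whereas the isoform of 829 bases had 164, 82.9 and 81.9 TPM in RWA-SA1 and 207, 196 and 231 TPM in RWA-SAM. TRINITY_DN527_c0_g1 showed the same pattern, as its isoform of 1395 bases overlapped while that of 761 bases had 100, 45.9 and 54.6 TPM in RWA-SA1 and 167, 169 and 165 TPM in RWA-SAM. In TRINITY_DN282_c0_g1 both isoforms separated the biotypes, with means from RWA-SA1 to RWA-SAM of 51.0% ± 2.08 (SD, n = 3) and 39.7% ± 1.72 (SD, n = 3) for one and 39.9% ± 0.838 (SD, n = 3) and 49.1% ± 1.47 (SD, n = 3) for the other.

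Length entered the rule through TPM, which divides counts by the effective length of a transcript, so the lengths of the top isoforms are not independent of the choice of the genes and are given as a description. The top isoforms of a switch gene differed by a median of 748 bases, and in 21 genes the shorter one had less than 50% of the length of the longer. In the 5785 genes outside, the first and second isoform by mean TPM differed by a median of 188 bases. The difference was at least 1000 bases in 41.2% of the switch genes and in 16.1% of the others, and under 50 bases in 9.28% and 17.8%. The RWA-SA1 top isoform was the longer one in 55 genes and the shorter one in 42. This order turned without RWA-SA1 replicate 1, when it was the longer one in 123 of 356 genes, or 34.6%. Among the 40 switch genes with a difference of at least 1000 bases it was the longer one in 27 and the shorter one in 13. The widest gap, picked after it was seen, was that of TRINITY_DN241_c0_g1, with 8729 bases for the RWA-SA1 top isoform and 1268 bases for the RWA-SAM top isoform.

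When the shares were computed from expected counts, without division by length, 77 genes met the same rule, and 34 of them were among the 97. That is 35.1% of the switch genes and 44.2% of those found from counts, and all 34 had the same pair of top isoforms on both scales. Of the 9 switch genes whose top isoforms differ by less than 50 bases, 7 were found on both scales, compared with 24 of 48 with a difference of 50 to under 1000 bases and 3 of 40 with 1000 bases or more. The median difference in share over the 97 genes, for the isoforms chosen on TPM, was 16.1 points from counts and 16.6 points from TPM. Of the 10 genes of highest rank, TRINITY_DN3913_c0_g1, TRINITY_DN1202_c0_g1, TRINITY_DN277_c0_g1, TRINITY_DN902_c0_g2 and TRINITY_DN5214_c1_g1 met the rule on both scales.

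**Figure D4:**
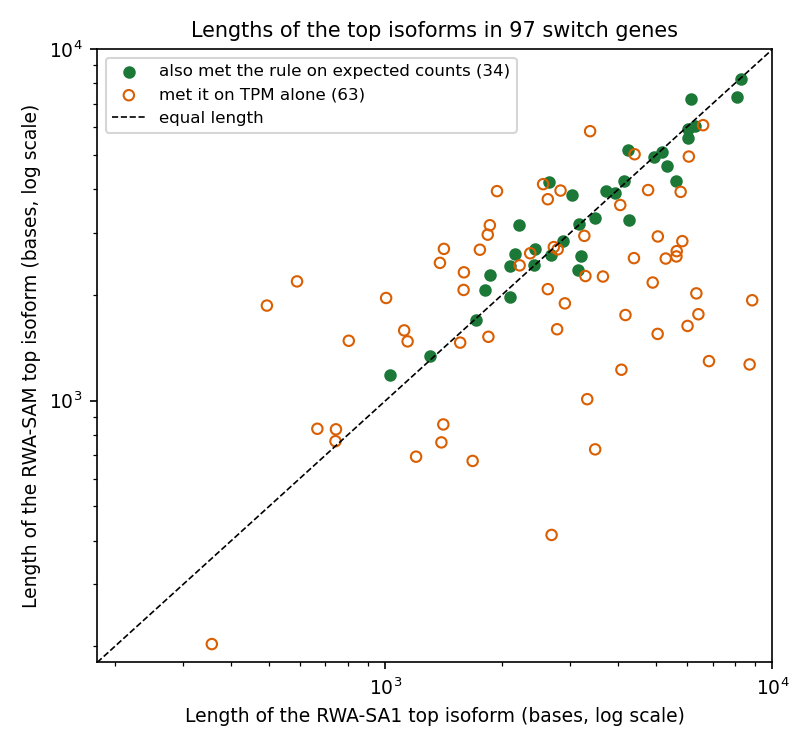
Length of the RWA-SA1 top isoform against that of the RWA-SAM top isoform in the 97 switch genes, in bases on log axes, with the dashed line at equal length, where filled points are the 34 genes that met the rule also on expected counts, and open points those that met it on TPM alone. Among the 40 genes whose lengths differ by at least 1000 bases only 3 points are filled.

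Fragment length moved with the libraries as well. In transcripts of at least 1000 bases, length exceeded effective length by a mean of 170, 159 and 153 bases for RWA-SA1 and of 170, 167 and 181 bases for RWA-SAM, a gap that follows the fragment length used by RSEM. Its part in the isoform shares was not tested. In TRINITY_DN2820_c0_g1 the top isoforms have 356 and 203 bases, and the shorter one is barely longer than a fragment. Whether this bears on the values of that gene was not tested either.

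The summed expression of the switch genes was compared between the biotypes as well. The sum of expected counts per gene identifier, tested over 16358 genes with edgeR's quasi-likelihood test, passed an adjusted p of 0.05 in 14 of the 97 genes, 2 higher and 12 lower in RWA-SAM, while 9.51% of all genes tested did so, 3.95% higher and 5.56% lower. At an unadjusted p of 0.05 the numbers were 43 of the 97 and 36.9% of all genes. This comparison is the one the rule used, and nothing is read from the count. It also rests on the set of libraries, with 60 of the 97 genes called without RWA-SA1 replicate 1 (50.3% of all genes) and none called when any other single library was left out, where edgeR still gave 3902 to 5037 of all genes an unadjusted p under 0.05. In 83 of the 97 genes the log2 fold change was under 0.5 in size, a share that was not computed for all genes. The median was -0.13 against 0.01 for all genes. On the scale of log2(TPM + 1), which corrects for the length of the isoforms, limma called 2 of the 97 genes, both higher in RWA-SAM, beside 2.52% of all genes, 1.81% being higher in RWA-SAM, and the medians were 0.05 and 0.21. The sign of the change differed between counts and mean TPM in 29 genes.

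Summed TPM did not overlap between the biotypes in 44 of the 97 genes, 24 being higher in RWA-SAM and 20 in the other biotype, compared with 39.9% of the 5882 genes, 26.2% and 13.6% in the same order. The 2 lowest and the 2 highest fold changes follow. TRINITY_DN2820_c0_g1 had summed values of 50.8, 267 and 272 TPM in RWA-SA1 and 62.3, 77.8 and 62.1 TPM in RWA-SAM. Its log2 fold change from edgeR was -2.18 ± 0.62 (SE), where the SE here and below was derived from the F value of the test. In summed TPM replicate 1 of RWA-SA1 lay below every RWA-SAM library, so the biotypes overlapped. On the scale of log2(TPM + 1) limma gave a smaller change of -1.20 for this gene. TRINITY_DN3122_c0_g1 had 793, 752 and 996 TPM in RWA-SA1 and 384, 548 and 271 TPM in RWA-SAM, with -1.26 ± 0.28 (SE), and both of its top isoforms were higher in every RWA-SA1 library. TRINITY_DN7678_c0_g2 was at the upper end, with 53.0, 38.8 and 39.5 TPM in RWA-SA1 and 75.5, 74.1 and 89.7 TPM in RWA-SAM, and 0.48 ± 0.11 (SE). For TRINITY_DN3505_c0_g1 the log2 fold change was 0.39 ± 0.15 (SE). By the edgeR test TRINITY_DN3122_c0_g1 and TRINITY_DN7678_c0_g2 were called, at an adjusted p of 0.043 and 0.044. TRINITY_DN2820_c0_g1 and TRINITY_DN3505_c0_g1 were not called, at 0.061 and 0.105.

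Each library was also read with a set of genes that it had not helped to choose. The rule was applied to the other 5 libraries, and the top isoform of the left-out library was compared with those of the biotypes. A gene for which the left-out library led with the isoform of its own biotype then meets the rule in all 6 libraries, apart from the TPM minimum, so this number stood at 97 or 98 throughout, and the libraries differed in how many further genes were found. Without RWA-SA1 replicate 2 the other libraries gave 120 genes, and replicate 2 led with the RWA-SA1 isoform in 98 of them, or 81.7%, and with the RWA-SAM isoform in 19. Replicate 3 of RWA-SA1 did so in 98 of 118, or 83.1%. The RWA-SAM replicates 1, 2 and 3 led with the isoform of their own biotype in 74.6%, 59.9% and 67.1% of 130, 162 and 146 genes.

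In the 356 genes found without RWA-SA1 replicate 1, that library led with the RWA-SA1 isoform in 97, or 27.2%, with the RWA-SAM isoform in 248, or 69.7%, and with another isoform in 11. Over the 5882 genes RWA-SA1 replicates 2 and 3 shared their top isoform in 92.2% and the RWA-SAM libraries among themselves in 90.3% to 90.7%, above the shares that replicate 1 had with either biotype. Within the 97 switch genes, which need replicate 1 to go with its biotype, it still had the lowest share of the RWA-SA1 top isoform of its group in 69, and in 34 it lay nearer to the RWA-SAM mean than to the mean of replicates 2 and 3. Left out of the means, it took the median share difference of the 97 genes from 16.6 to 19.4 points. Its fragment length lay within the range of the RWA-SAM libraries.

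**Figure D5:**
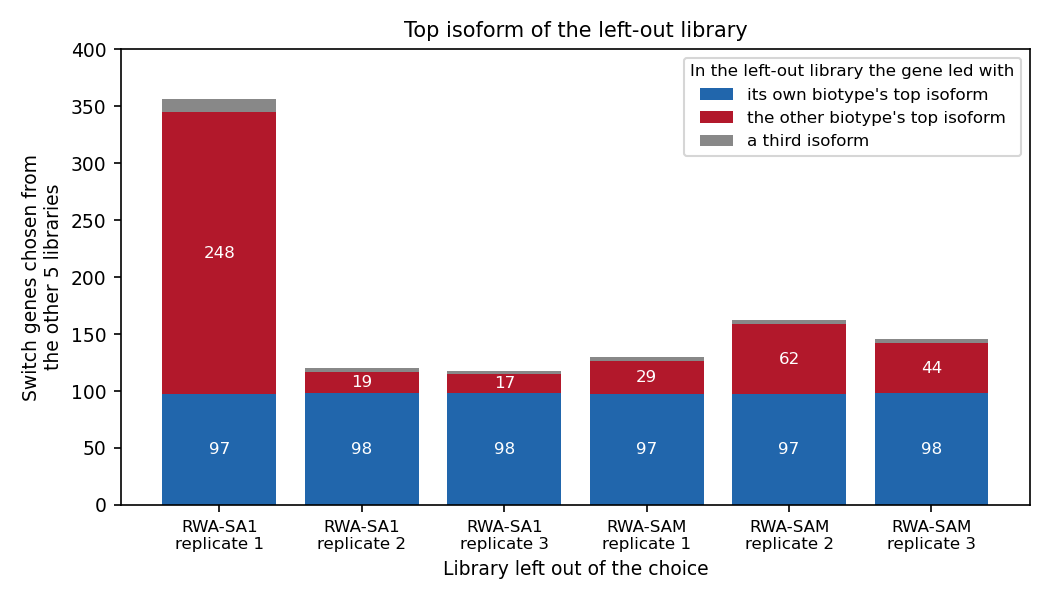
Number of genes that met the rule in 5 libraries, by the library left out, split by the isoform with which the left-out library led. The bar of RWA-SA1 replicate 1 reaches 356 genes, 248 of them led by the RWA-SAM isoform, while the other 5 bars reach 118 to 162.

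A limit comes from the assembly. Of the 97 genes, 67 belong to an assembly cluster with further gene identifiers, up to 17 in one cluster, which may hold related sequences that compete for the same reads. No cluster held more than 1 switch gene, and 30 were alone in their cluster.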

How the data were processed

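Whole aphids of RWA-SA1 and RWA-SAM were sequenced in 3 libraries each, grouped by the biotype and replicate number in the labels. The authors trimmed reads with Trimmomatic 0.39 and quantified each library with RSEM on a Trinity-named assembly, per the labels and the file headers, while the aligner and the RSEM version are not given in the sources used here. The deposited values are expected counts, TPM, isoform percent and transcript lengths. Replicates were not pooled.

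Shares are the TPM of a transcript divided by the summed TPM of its gene identifier, and they matched the deposited percent values within 0.0788 points for the top isoforms. A tied top isoform was resolved by identifier. Expected counts were summed per gene and rounded. Totals were then compared in R 4.3.3 by the two-sided quasi-likelihood test of edgeR 4.0.16, with TMM scaling, filterByExpr and Benjamini-Hochberg adjustment. The test gives no standard error, so the SE was computed as the size of the log2 fold change divided by the square root of F. The alternatives used DESeq2 1.42.0, limma 3.58.1, RLE scaling, no filter, other TPM minimums, count shares, wider leads, a replicate block and leaving out each library. Limma was run on genes with a mean of at least 1 TPM. Summaries used Python 3.11.15, pandas 2.3.3, numpy 2.4.6 and matplotlib 3.10.9. The rule was checked on the real values after full exchange of isoform pairs in the RWA-SAM libraries, which says little about partial switches. The edgeR fit was checked on simulated counts. Library pairs differed by at least 24.4 in chi-square per degree of freedom, so none was a duplicate.

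The genes and the tests were chosen with earlier results of these data known. Genes were named by rule as the 10 of highest rank, the 5 of highest mean TPM, the 5 with the most isoforms, those of the 2 largest and 2 smallest fold changes of the total, and the last by rank. Others were named after their values were seen.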

Additional observations from a re-analysis of the deposited data

How the results depend on the processing

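The count of switch genes was 118 with a minimum of 1 TPM, 88 with 10 TPM, 97 with at least 10 counts behind the top isoforms and 95 with ties set aside, the last chosen after seeing the data. A lead of 1.5 times in every library left 2. Leaving out 1 library gave 118 to 356, always with all 97 included, since fewer libraries relax the rule. The median share difference of the 97 genes was 15.8 to 19.4 points when 1 library was left out. For the 20 named genes no share difference changed sign in 140 recomputed values, and 3 moved by more than the standard deviation. Since 10 of them were named for the size of this difference, the sign was nearly fixed by the choice. Over all 97 genes the lowest difference did change sign, to -0.99 points from counts and -1.66 points without RWA-SA1 replicate 2. The RWA-SA1 top isoform was longer in 55 genes by effective length and in 52 of 88 that differ by at least 50 bases. With the rule applied to 5 libraries, an alternative chosen after seeing the data, it was longer in 65 to 123 genes. The 123 are of 356 found without RWA-SA1 replicate 1, or 34.6%, so the order turned there, against 53.8% to 58.9% without any other library.

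For gene totals, edgeR called 1556 of all genes and 14 of the 97. RLE scaling gave 1499 and 15, no filter on low counts 578 and 3, DESeq2 3442 and 33, limma on log2(TPM + 1) 433 and 2, and on log2(TPM + 0.1) 207 and 1. Leaving out 1 library gave 0 to 8876 of all genes and 0 to 60 of the 97, with 3902 to 5037 genes at an unadjusted p under 0.05 where none was called, and the highest counts came without RWA-SA1 replicate 1. Of all genes called, 41.5% were higher in RWA-SAM from counts, 71.8% from log2(TPM + 1) and 50.8% without RWA-SA1 replicate 1. With the replicate number as a replicate block edgeR called 0 genes and 0 of the 97, with 5279 genes at an unadjusted p under 0.05. Deviations of same-numbered libraries correlated at -0.07, 0.08 and -0.11, so the numbers were not taken as pairs. The cause of these changes was not tested.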

Other observations

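A further 259 genes met the rule only without RWA-SA1 replicate 1, a set found after the values were seen and described here without a test. A gene where replicate 1 led with the RWA-SA1 isoform would meet the rule in all libraries, apart from the TPM minimum. None is therefore in this set, and in 248 of its genes replicate 1 led with the RWA-SAM isoform. Since the top isoform of replicate 1 set the choice, nothing is read from how near its shares lie to RWA-SAM. The isoform that led in RWA-SA1 replicates 2 and 3 held a median of 51.7% and 52.1% there, 29.0% in replicate 1, and 25.5%, 26.1% and 22.8% in RWA-SAM replicates 1, 2 and 3. Its partner held 51.7% in replicate 1, against 30.4% and 30.2% in replicates 2 and 3 and 53.2% to 57.3% in RWA-SAM. Computed without replicate 1, the share difference reached 88.8 points, with 92 of the 259 genes at 30 points or more. Computed on the same libraries, it reached 47.6 points in the 97 genes.

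In TRINITY_DN6932_c0_g1, with top isoforms of 2398 and 2506 bases, the first held 93.1% and 94.4% in RWA-SA1 replicates 2 and 3, 3.81% in replicate 1, and 2.21%, 14.2% and 4.28% in RWA-SAM. In TRINITY_DN1047_c1_g1, with 2 isoforms of 2069 and 2081 bases, the first held 76.3% and 85.1% in replicates 2 and 3, 9.04% in replicate 1, and 6.83%, 11.5% and 6.09% in RWA-SAM. Replicate 1 thus lay within or near the RWA-SAM range in both genes. In TRINITY_DN5877_c0_g1, with 2809 and 2821 bases, it lay between the groups, at 30.6% against 99.1% and 88.6% in replicates 2 and 3 and 4.50%, 0% and 10.7% in RWA-SAM. Over the 259 genes the RWA-SAM top isoform was the longer one in 190, the shorter one in 68 and equal in 1, and the fragment length of replicate 1 lies within the range of RWA-SAM. Whether biotype with its rearing host, fragment length or the identity of the pool goes with these shifts cannot be told apart with 1 such library.

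Leading isoforms also varied within a biotype. Of the 5882 genes, 1437, or 24.4%, had a mixed top isoform inside at least 1 biotype, with 1024 such genes for RWA-SA1 and 805 for RWA-SAM, and 4348, or 73.9%, had the same top isoform in all libraries.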
